A study of Mus musculus with 4 samples.

Results

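The genes described here build and run the mitotic apparatus. They were taken from a list of 45 kinetochore, spindle checkpoint, mitotic kinase, kinesin, cohesion and condensin genes, listed by symbol with earlier results of these data known, in RNA-seq of TBV2 mouse embryonic stem cells (ESCs). A row was found for 43 of the 45 among 28250 listed genes, and all 43 passed the filter on low values that left 20336 genes. Plk1 and Ckap5 had no row under any matched name and were not analysed here. TBV2 is a feeder-dependent ESC line of 129/SvP origin, and in both groups the cells came from cultures kept on feeders with leukemia inhibitory factor and put on gelatin. The Solvent group held 2 libraries from cells kept 24 h with solvent alone, and the MS-275 group held 2 libraries from cells kept 24 h with 5 µM MS-275, an inhibitor of class I histone deacetylases. The labels do not say that the 2 libraries of a group came from separate cultures. The p-values thus measure at most the spread between these libraries, which may be technical. They also use a variance drawn towards a level fitted over all genes, and not each gene's own spread alone. In such bulk RNA, fewer cells in mitosis and less RNA per mitotic cell cannot be told apart.

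At each centromere, a histone H3 variant marks the site on which the inner kinetochore is assembled, and the outer kinetochore then binds spindle microtubules. The spindle checkpoint holds back the anaphase-promoting complex until all chromosomes are attached. Sister chromatids stay joined by cohesin, which separase cuts at anaphase onset, while condensins and topoisomerase II compact and untangle the chromosomes. In ESCs, which divide rapidly with short gap phases, most of these genes are well expressed, and their transcripts peak in G2 and mitosis.

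The question asked of these libraries was which parts of the mitotic machinery fall with MS-275. Each library gives 1 normalized expression value per gene in the authors' own unit, and fold changes are on the scale of log2(value + 0.005). No member passed an adjusted p of 0.05 in the comparison of the 2 groups as they stand (limma with Benjamini-Hochberg adjustment over all genes), where 0% of all genes were called lower and 0.00492% higher. At an unadjusted p under 0.05 that fit held 1 of the 43 members as lower, Kif18a, and 0 as higher. Of all 20336 genes, 564 were lower and 2974 higher at that threshold, so the share of members called lower was no larger than that of all genes. When the replicate number was added as a block, since the column headers mark replicate 1 of both groups as old, 5 members fell and 0 rose: Kif18a, Kif11, Sgol1, Cenpa and Plk4. These 5 were 11.6% of the members, against 6.46% of all genes called lower and 21% called higher in the same paired fit. Unless stated otherwise, the SE beside a fold change of the values below is from the fit without the block, also where a paired p-value follows.

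Over all 43 members the median log2 fold change was -0.27, with -0.24 in replicate pair 1 and -0.33 in pair 2. The median of all genes tested was 0.20, so the deposited values as a whole were higher with MS-275. With 1 library left out, the members' median ran from -0.42 without MS-275 replicate 2 to -0.21 without Solvent replicate 2. The median of all genes was 0.30 and 0.10 in these settings. In both pairs the value was lower with MS-275 for 27 members (62.8%, against 26.5% of all genes), and it was higher in both for 4 members (9.30%, against 50% of all genes). Both MS-275 libraries lay under both Solvent libraries for 14 members (32.6%, against 12%), and the reverse held for 0 members, against 32.3% of all genes.

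Reads were also counted a second way, as distinct alignment positions on exons, which repeated reads do not raise. Replicate numbers of positions are those of the alignments, and within a group they may be exchanged against those of the values. In distinct positions 42 of the 43 members were lower with MS-275, with a median of -0.38 against -0.02 over all genes. With limma-voom on these positions 12 members passed as lower and 0 as higher (27.9%, against 9.61% of all genes lower and 13.6% higher). In fits without 1 library, tried after the data were seen, this unpaired count was 5 without Solvent replicate 1, 4 without Solvent replicate 2, and 10 and 14 without MS-275 replicates 1 and 2. With the block 28 passed as lower and 0 as higher (65.1%, against 22.4% lower and 24.7% higher). After a median-ratio scaling that set the median of all genes to -0.01, the members' median was -0.55, 40 of them were lower and 19 passed as lower with the block (44.2%, against 13.8%). Quantile normalization with the block called 14 members lower (32.6%, against 14.6%). Each of these fits called 0 members higher. Counts of single roles below rest on few genes and are to be read against these same shares of all genes.

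**Figure D1:**
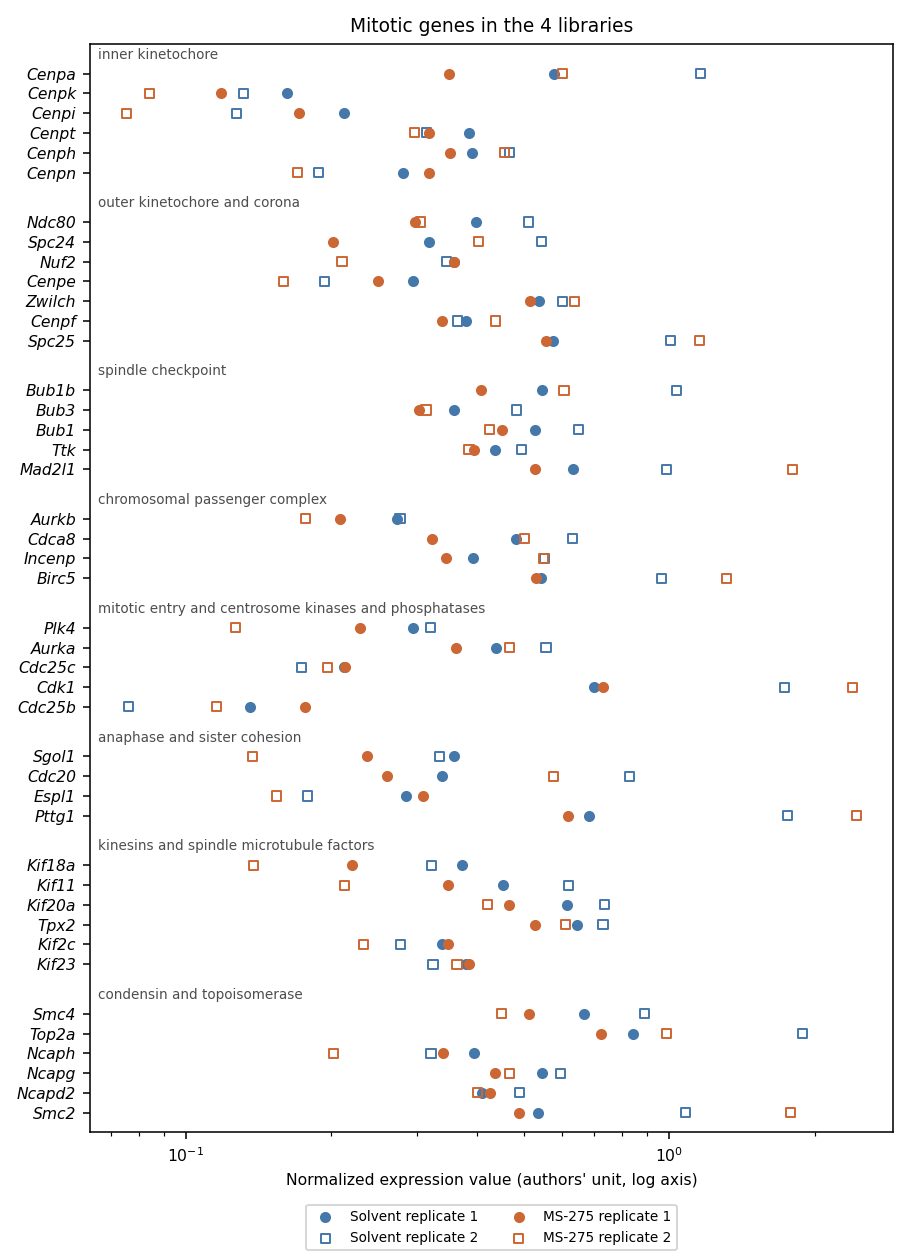
Normalized expression value (authors' unit, log axis) of the 43 measured members in each of the 4 libraries, grouped by role. Solvent is blue and MS-275 orange, filled for replicate 1 and open for replicate 2. For Kif18a, Kif11, Sgol1 and Plk4 both orange points lie left of both blue points, while for 8 members, Mad2l1 and Smc2 among them, the open orange square is the rightmost point.

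**Figure D2:**
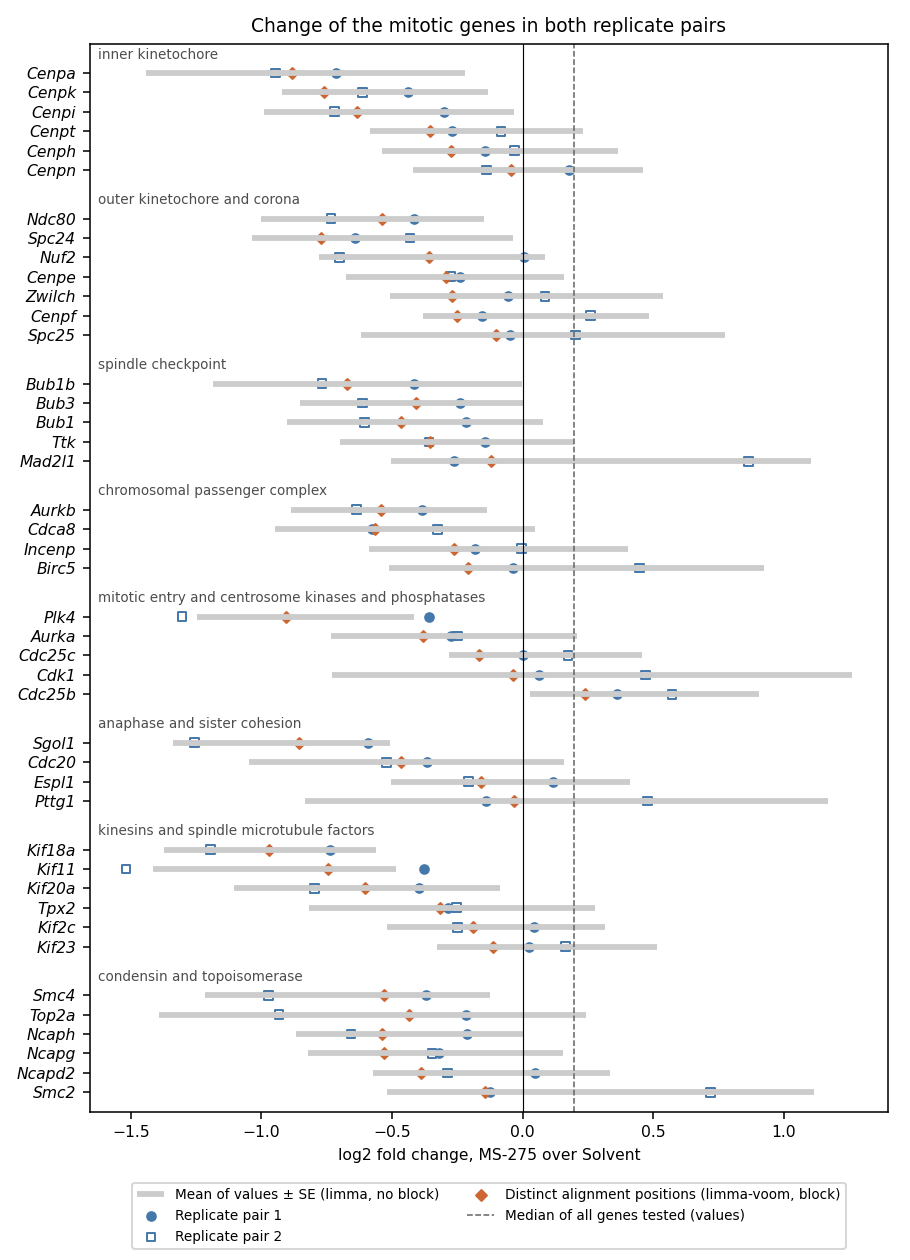
Log2 fold change of MS-275 over Solvent for each member, with replicate pair 1 as filled circles, pair 2 as open squares, the limma estimate ± SE without a block as grey bars and distinct alignment positions as orange diamonds. The dashed line is the median of all genes (0.20). Diamonds lie left of 0 for 42 of 43 members, the exception being Cdc25b.

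The motors and other spindle factors had the lowest median of the 8 roles in the values, -0.43 over 6 measured genes (-0.46 in distinct positions, where the inner kinetochore at -0.49 and the condensin role at -0.48 were lower). Kif18a (Entrez 228421, mm9 chr2:109120895-109181904, + strand), a kinesin that dampens chromosome oscillations at the metaphase plate, was 0.372 and 0.322 in Solvent replicates 1 and 2 and 0.221 and 0.138 in MS-275 replicates 1 and 2. Both treated libraries were under both controls, with means of 0.347 ± 0.0352 (SD, n = 2) and 0.180 ± 0.0587 (SD, n = 2). The log2 fold change was -0.97 ± 0.41 (SE), at an adjusted p of 0.257 without the block and 0.00510 with it (limma, Benjamini-Hochberg). Its distinct positions, before any scaling for depth, numbered 1233 and 1271 with solvent and 594 and 790 with MS-275. After median-ratio scaling they were 1227 and 1352, and 643 and 673. In limma-voom with the block the change was -0.97 ± 0.12 (SE) at an adjusted p of 1.72e-05.

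Kif11 (Entrez 16551, mm9 chr19:37450893-37496349, + strand) encodes the kinesin-5 motor that pushes the spindle poles apart. Its values were 0.454 and 0.619 in the Solvent libraries and 0.348 and 0.213 in the MS-275 libraries, again without overlap, though the drop was larger in pair 2 (-1.52) than in pair 1 (-0.38). The estimate of -0.95 had an SE of 0.47 unpaired and 0.27 paired, with adjusted p-values of 0.347 and 0.0174 (limma). Distinct positions gave -0.74 ± 0.12 (SE) (adjusted p = 0.000122, limma-voom with the block). At the other end, Kif23, the motor subunit of centralspindlin used in cytokinesis, read 0.380 and 0.324 with solvent and 0.386 and 0.364 with MS-275. These ranges overlapped and the change of 0.09 was under its SE of 0.42; it turned to -0.11 in distinct positions and -0.19 after median-ratio scaling. The remaining members Kif20a, Tpx2 and Kif2c lay between -0.60 and -0.10. Kif20a, a cytokinesis kinesin, and Tpx2, which activates Aurora A on the spindle, fell in the paired fit to distinct positions (adjusted p = 0.00133 and 0.0247, limma-voom). Thus 4 of the 6 genes passed there, where 22.4% of all genes were called lower.

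Promoters of the members at the ends of the ranking are shown next, because mitotic genes are known to share promoter elements: the cell cycle homology region (CHR), read by the DREAM and MuvB complexes, and CCAAT boxes, read by NF-Y. Each line holds the 150 bases before the transcription start, 5′ to 3′ on the gene's own strand, from RefSeq on GRCm38.p6. Capitals mark a CHR (TTTGAA, or TTCAAA on the other strand) or a CCAAT box (CCAAT, or ATTGG on the other strand). Kif18a (GRCm38.p6 chr2:109280588-109280737, + strand), Kif11 (chr19:37376232-37376381, + strand) and Sgol1 (chr17:53689316-53689465, - strand) had the lowest fold changes, and Cdc25b (chr2:131186798-131186947, + strand) and Mad2l1 (chr6:66535071-66535220, + strand) the highest.
Kif18a: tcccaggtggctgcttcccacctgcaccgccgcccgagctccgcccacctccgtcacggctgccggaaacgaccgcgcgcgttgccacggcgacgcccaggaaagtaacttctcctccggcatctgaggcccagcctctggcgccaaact
Kif11: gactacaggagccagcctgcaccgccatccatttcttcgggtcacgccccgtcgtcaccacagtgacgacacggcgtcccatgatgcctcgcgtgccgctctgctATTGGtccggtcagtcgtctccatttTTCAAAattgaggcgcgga
Sgol1: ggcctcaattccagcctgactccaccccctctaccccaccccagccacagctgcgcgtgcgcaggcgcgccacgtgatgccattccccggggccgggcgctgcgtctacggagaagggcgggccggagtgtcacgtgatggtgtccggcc
Cdc25b: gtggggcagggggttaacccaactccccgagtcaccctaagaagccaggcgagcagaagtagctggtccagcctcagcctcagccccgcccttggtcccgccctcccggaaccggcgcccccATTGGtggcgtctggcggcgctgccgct
Mad2l1: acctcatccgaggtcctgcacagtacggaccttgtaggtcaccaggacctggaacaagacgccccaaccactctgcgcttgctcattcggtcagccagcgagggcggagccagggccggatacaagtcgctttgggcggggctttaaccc
Only Kif11 of these 5 held both elements in the window, with the CCAAT box at -45 and the CHR at -19 from the start, and Cdc25b held a CCAAT box at -28. No capitals stand in the lines of Kif18a, Sgol1 and Mad2l1, which says no more than that these letters are not in this window.

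A further 4 promoters, chosen after the values were seen from members with both elements in these 150 bases, show a CCAAT box upstream of a CHR that lies close to the start. Cdc20 (GRCm38.p6 chr4:118437344-118437493, - strand) and Top2a (chr11:99024190-99024339, - strand) were lower in the values, and Cenpn (chr8:116921590-116921739, + strand) and Cdk1 (chr10:69352913-69353062, - strand) were near or above 0.
Cdc20: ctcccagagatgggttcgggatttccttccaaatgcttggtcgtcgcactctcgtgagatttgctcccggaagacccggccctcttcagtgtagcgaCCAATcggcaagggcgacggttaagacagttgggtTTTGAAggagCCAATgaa
Top2a: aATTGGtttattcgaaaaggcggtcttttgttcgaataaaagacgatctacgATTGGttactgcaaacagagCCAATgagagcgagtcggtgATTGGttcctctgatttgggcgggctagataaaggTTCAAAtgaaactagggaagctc
Cenpn: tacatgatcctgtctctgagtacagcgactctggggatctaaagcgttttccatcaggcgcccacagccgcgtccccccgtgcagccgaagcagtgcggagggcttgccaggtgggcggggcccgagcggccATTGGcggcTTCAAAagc
Cdk1: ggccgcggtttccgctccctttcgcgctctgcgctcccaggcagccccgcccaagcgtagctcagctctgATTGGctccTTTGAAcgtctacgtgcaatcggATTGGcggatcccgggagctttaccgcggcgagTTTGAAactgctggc
The CHR nearest the start began at -18 in Cdc20, -23 in Top2a, -9 in Cenpn and -15 in Cdk1. Not every member with both elements in this window had that layout. In Smc2 the CHR of the window began at -145, upstream of a CCAAT box at -119, and in Ncapd2 the CHR began at -123.

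An entry in the promoter table (250 bases before to 50 after the start) was found for 35 of the 43 members, with 38 entries in all. Both strands were searched for the CHR, for CCAAT and for the E2F site TTCCCGC. The CHR stood in 55.3% of the member promoters, against 17.9% of all 32851 promoters of the table. CCAAT stood in 73.7% against 37.4%, TTCCCGC in 13.2% against 4.60%, and the CHR together with CCAAT in 50% against 6.95%. In Cdca8 the CHR and a CCAAT box shared 1 base, and no other matches of different motifs overlapped in the member promoters.

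The 20 members with a CHR had a median log2 fold change of -0.26 in the values and -0.39 in distinct positions, and 13 of them passed as lower in the paired fit to positions. The 15 without had medians of -0.35 and -0.36, and 10 of them passed. Over all genes 22.4% were called lower in that fit. Medians with and without CCAAT were -0.26 and -0.26 in the values and -0.39 and -0.35 in distinct positions, over 25 and 10 members. With and without the E2F site they were -0.33 and -0.26 in the values and -0.52 and -0.37 in distinct positions. Only 5 members held that site, and 30 did not. These are descriptions of matches, with no test.

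**Figure D3:**
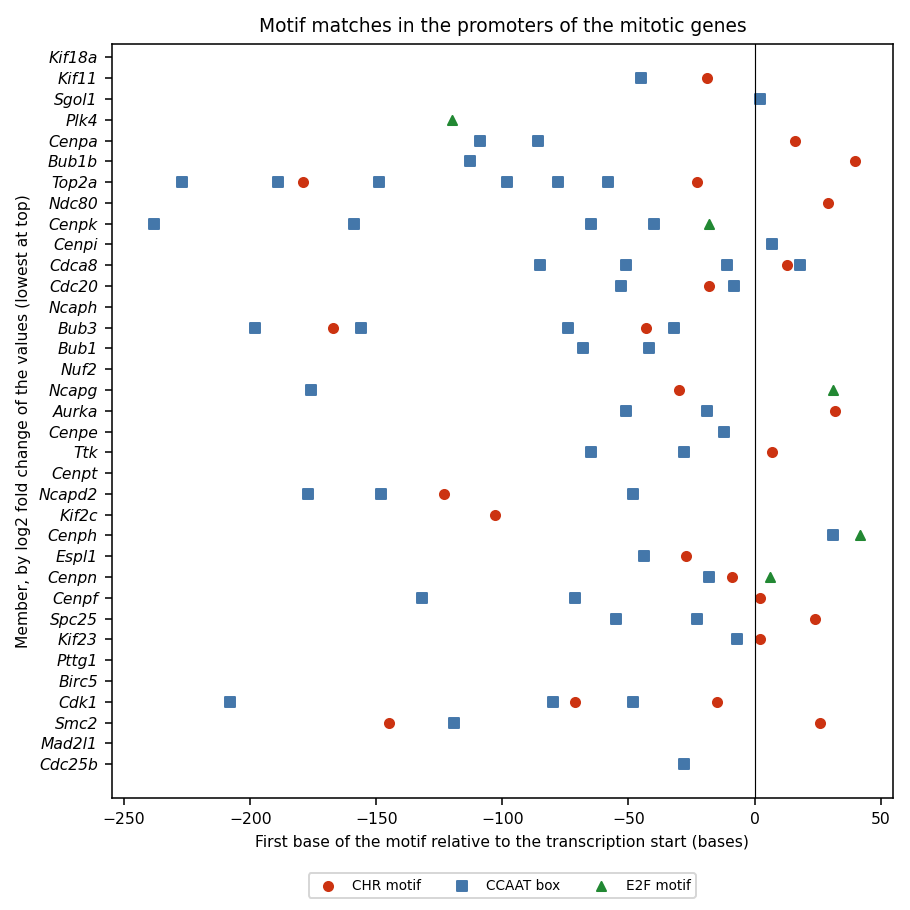
First base of each CHR, CCAAT and E2F match relative to the transcription start (in bases) in the promoters of 35 members, ordered from the lowest log2 fold change of the values at the top to the highest at the bottom. CHR matches gather near the start in rows from top to bottom, as in Kif11 (-19), Cdc20 (-18) and Cdk1 (-15).

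The spindle checkpoint genes had a median of -0.41 over 5 members, and 3 of the 5 had both treated libraries under both controls, as did 12% of all genes. Bub1b (Entrez 12236, mm9 chr2:118423947-118467328, + strand), the BubR1 kinase of the mitotic checkpoint complex, was 0.546 and 1.04 with solvent and 0.408 and 0.606 with MS-275. The second replicate ran higher in both groups, so the ranges overlapped, and within each pair the treated library was lower. Its fold change was -0.59 ± 0.59 (SE), between -1.05 and -0.13 without 1 library, with an adjusted p of 0.110 in limma with the block, and distinct positions gave -0.67 ± 0.11 (SE) (adjusted p = 0.0002, limma-voom with the block).

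Bub3 (Entrez 12237, mm9 chr7:138703905-138715412, + strand), the scaffold that brings Bub1 and BubR1 to kinetochores, read 0.359 and 0.483 with solvent and 0.303 and 0.314 with MS-275, a change of -0.43 ± 0.43 (SE) without overlap. Mad2l1 (Entrez 56150, mm9 chr6:66485384-66491027, + strand), which binds Cdc20 when chromosomes are unattached, was 0.633 and 0.985 with solvent and 0.526 and 1.80 with MS-275. MS-275 replicate 2 held the highest of its 4 values, MS-275 replicate 1 the lowest, and the pairs moved in opposite directions (-0.26 and 0.87). The mean change of 0.30 had an SE of 0.80 and turned to -0.12 in distinct positions. The checkpoint kinases Bub1 and Ttk lay at -0.41 and -0.25, and all members of the role but Mad2l1 passed as lower in the paired fit to distinct positions.

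The condensin and topoisomerase genes had a median of -0.38 over 6 members. Smc4 (Entrez 70099, mm9 chr3:68808660-68838545, + strand), an ATPase core subunit of condensin, was 0.665 and 0.888 with solvent and 0.514 and 0.450 with MS-275. Its groups did not overlap. The change of -0.67 had an SE of 0.55 without the block and 0.27 with it, where the adjusted p was 0.0793 (limma). Top2a (Entrez 21973, mm9 chr11:98854257-98885503, - strand), the DNA topoisomerase that untangles sister chromatids, read 0.840 and 1.89 with solvent and 0.722 and 0.985 with MS-275. MS-275 replicate 2 lay above Solvent replicate 1, so the groups overlapped, although both pairs were lower. The estimate was -0.57 ± 0.82 (SE), and without 1 library it ran from -1.16 to 0.0062. Distinct positions gave both genes as lower, Smc4 at -0.53 ± 0.11 (SE) and Top2a at -0.43 ± 0.09 (SE) (adjusted p = 0.000755 and 0.00131, limma-voom with the block).

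Smc2 (Entrez 14211, mm9 chr4:52452115-52501237, + strand), the partner of Smc4 in the same ring, was 0.534 and 1.08 with solvent and 0.490 and 1.78 with MS-275, with pair 1 at -0.12 and pair 2 at 0.72. The mean change of 0.30 was under its SE of 0.82 and turned to -0.14 in distinct positions, where it did not pass (adjusted p = 0.251, limma-voom with the block). The condensin I subunits Ncaph, Ncapg and Ncapd2 lay between -0.43 and -0.12, and all 3 passed as lower in distinct positions, giving 5 of 6 for the role.

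At the inner kinetochore the median was -0.34 over 6 members. Cenpa (Entrez 12615, mm9 chr5:30969150-30977200, + strand), the histone H3 variant that defines the centromere, was 0.578 and 1.16 with solvent and 0.350 and 0.601 with MS-275. The second replicate was the higher in both groups, so MS-275 replicate 2 lay just above Solvent replicate 1 and the ranges overlapped. Within pairs the change was -0.72 and -0.95. The estimate of -0.83 passed with the block, at an SE of 0.26 (adjusted p = 0.0283, limma). It did not pass without the block, at an SE of 0.61 (adjusted p = 0.585, limma). Its distinct positions were 914 and 926 with solvent and 500 and 574 with MS-275 (909, 985, 541 and 489 after median-ratio scaling). In limma-voom with the block the change was -0.88 ± 0.13 (SE) (adjusted p = 8.44e-05).

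Cenpk (Entrez 60411, mm9 chr13:105019035-105041728, + strand), a subunit of the constitutive centromere network, was 0.162 and 0.131 with solvent and 0.118 and 0.0842 with MS-275. The groups were apart, at -0.53 ± 0.39 (SE), but the gene missed the threshold in the paired fit to the values (adjusted p = 0.0929, limma) and passed it in distinct positions (0.00390, limma-voom with the block). Cenpn (Entrez 72155, mm9 chr8:119445640-119465403, + strand), which reads the Cenpa nucleosome, was 0.281 and 0.188 with solvent and 0.318 and 0.170 with MS-275. Its change was 0.02 ± 0.44 (SE), a sign that turned under median-ratio scaling (-0.26) and in distinct positions (-0.05). Cenpi, Cenpt and Cenph, of the same network, lay between -0.51 and -0.09. Of the role's 6 members, 4 passed as lower in the paired fit to distinct positions: Cenpa, Cenpk, Cenpi and Cenpt.

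The chromosomal passenger complex had a median of -0.27 over its 4 members. Aurkb (Entrez 20877, mm9 chr11:68859149-68865166, + strand), its kinase, was 0.274 and 0.277 with solvent and 0.208 and 0.176 with MS-275. The controls were almost equal and both treated libraries lay below them, at -0.51. The SE was 0.37 without the block and 0.22 with it, where the adjusted p was 0.0982 (limma). Cdca8 (Entrez 52276, mm9 chr4:124595709-124616555, - strand), the borealin subunit that places the complex at centromeres, read 0.483 and 0.631 with solvent and 0.322 and 0.502 with MS-275. Its ranges overlapped, although both pairs were lower, and the estimate was -0.45 ± 0.50 (SE).

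Birc5 (Entrez 11799, mm9 chr11:117710565-117717069, + strand), survivin, was 0.543 and 0.962 with solvent and 0.529 and 1.31 with MS-275, so the controls lay inside the range of the treated libraries. The mean change of 0.20 turned to -0.08 under median-ratio scaling and -0.21 in distinct positions. Incenp, the scaffold, was at -0.09. Aurkb and Cdca8 passed as lower in the paired fit to distinct positions (adjusted p = 0.00509 and 0.00240, limma-voom), and Incenp (0.0694) and Birc5 (0.174) did not.

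The outer kinetochore and corona had a median of -0.26 over 7 members. Ndc80 (Entrez 67052, mm9 chr17:71845440-71876197, - strand), the microtubule-binding subunit that names its complex, was 0.399 and 0.511 with solvent and 0.298 and 0.305 with MS-275. Both treated libraries were under both controls and close to each other, for a change of -0.57 ± 0.43 (SE). Spc24 (Entrez 67629, mm9 chr9:21559886-21564733, - strand), which anchors the complex to the inner kinetochore, read 0.318 and 0.544 with solvent and 0.202 and 0.403 with MS-275. The ranges overlapped and both pairs were lower, at -0.54 ± 0.50 (SE) and between -1.03 and -0.05 without 1 library.

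Spc25 (Entrez 66442, mm9 chr2:69031952-69044251, - strand), the direct partner of Spc24, was 0.575 and 1.004 with solvent and 0.556 and 1.16 with MS-275. Its change of 0.08 was under the SE of 0.70 and turned to -0.21 after median-ratio scaling and -0.10 in distinct positions. Within the 4-subunit Ndc80 complex, Ndc80, Spc24 and Nuf2 passed as lower in the paired fit to distinct positions (adjusted p = 0.00330, 0.00119 and 0.0405, limma-voom), and Spc25 did not (0.530). The other members, Cenpe, a motor of the corona, Cenpf, and Zwilch of the complex that recruits dynein, lay between -0.26 and 0.05 in the values. Cenpf and Zwilch, at 0.05 and 0.01, turned to -0.25 and -0.27 in distinct positions, where Cenpf and Cenpe passed as lower and Zwilch did not (adjusted p = 0.0458, 0.0352 and 0.0616, limma-voom with the block).

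The genes of anaphase and sister cohesion had a median of -0.25 over 4 members, with Sgol1 far below the rest. Sgol1 (Entrez 72415, mm9 chr17:53814111-53828658, - strand), shugoshin, which shields centromeric cohesin until anaphase, was 0.359 and 0.335 with solvent and 0.237 and 0.138 with MS-275. The controls were close, at 0.347 ± 0.0170 (SD, n = 2), and both treated libraries lay below, at 0.187 ± 0.0702 (SD, n = 2). The change of -0.92 ± 0.41 (SE) had an adjusted p of 0.291 without the block and 0.00857 with it (limma). Distinct positions were 1040 and 1204 with solvent and 511 and 854 with MS-275 (1035, 1281, 553 and 728 after median-ratio scaling). They gave -0.86 ± 0.12 (SE) (adjusted p = 5.99e-05, limma-voom with the block).

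Cdc20 (Entrez 107995, mm9 chr4:118105506-118109957, - strand), the activator of the anaphase-promoting complex, was 0.338 and 0.827 with solvent and 0.261 and 0.575 with MS-275. It was lower in both pairs (-0.37 and -0.52), with overlapping ranges and an estimate of -0.44 ± 0.60 (SE) that ran from -1.08 to 0.19 without 1 library. Pttg1 (Entrez 30939, mm9 chr11:43233752-43239753, - strand), securin, the inhibitor of separase, read 0.682 and 1.75 with solvent and 0.619 and 2.44 with MS-275. The replicates differed more than the groups, the change of 0.17 was under its SE, and it turned to -0.12 under median-ratio scaling and -0.03 in distinct positions. Espl1, separase itself, was at -0.05. Sgol1 and Cdc20 passed as lower in the paired fit to distinct positions, and the pair of separase and securin did not (adjusted p = 0.257 and 0.882, limma-voom).

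The kinases and phosphatases of mitotic entry and the centrosome were the only one of the 8 roles with a median above 0 in the values, 0.09 over 5 measured members, and that median turned to -0.19 after median-ratio scaling and -0.17 in distinct positions with the block. Plk4 (Entrez 20873, mm9 chr3:40603941-40620805, + strand), the kinase that starts centriole duplication, stood apart at 0.295 and 0.320 with solvent and 0.229 and 0.127 with MS-275. The groups did not overlap, with means of 0.308 ± 0.0175 (SD, n = 2) and 0.178 ± 0.0725 (SD, n = 2), and the larger drop was in pair 2 (-1.30, against -0.36 in pair 1). The estimate of -0.83 had an SE of 0.25 in the paired limma fit (adjusted p = 0.0210) and 0.42 in the unpaired one (adjusted p = 0.357). Its distinct positions were 1155 and 1093 with solvent and 491 and 828 with MS-275 (1149, 1163, 531 and 706 after median-ratio scaling). They gave -0.90 ± 0.13 (SE) (adjusted p = 6.86e-05, limma-voom with the block).

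Aurka (Entrez 20878, mm9 chr2:172181690-172196035, - strand), Aurora A, which matures centrosomes, was 0.439 and 0.556 with solvent and 0.361 and 0.467 with MS-275. It was lower in both pairs by nearly the same amount (-0.28 and -0.25), and it passed in distinct positions at -0.38 ± 0.13 (SE) (adjusted p = 0.0219, limma-voom with the block). Cdc25b (Entrez 12531, mm9 chr2:131012685-131024233, + strand), a phosphatase that activates cyclin-dependent kinase 1, had the highest change of all 43 members. Its values were 0.136 and 0.0761 with solvent and 0.176 and 0.116 with MS-275, higher in both pairs with overlapping ranges. The estimate of 0.47 ± 0.44 (SE) did not pass in any fit, with 0.24 in distinct positions (adjusted p = 0.197, limma-voom with the block), and it kept its sign under each scaling. Cdc25c and Cdk1, the kinase itself, were at 0.09 and 0.27 in the values, and these signs turned to -0.17 and -0.04 in distinct positions.

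**Figure D4:**
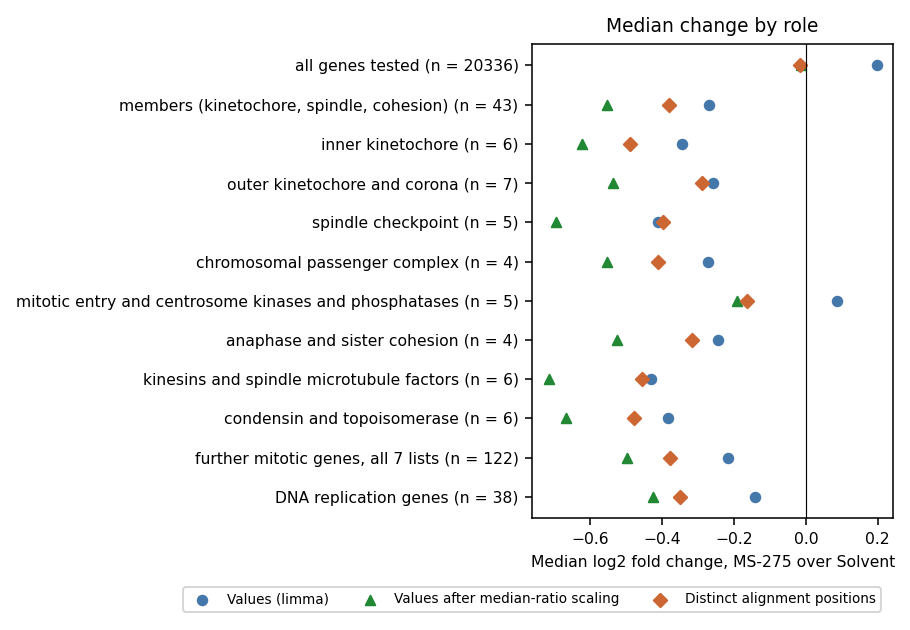
Median log2 fold change of MS-275 over Solvent for all genes tested, the members, their 8 roles, the further mitotic genes and the DNA replication genes, in the values (circles), the values after median-ratio scaling (triangles) and distinct alignment positions (diamonds, where all genes are 15037). In each of the 3 measures every role lies left of all genes tested, the role of entry and centrosome kinases and phosphatases by the least.

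MS-275 replicate 2 held the highest of the 4 values for 8 members, a pattern noticed after the values were seen: Mad2l1, Smc2, Pttg1, Cdk1, Birc5, Spc25, Cenpf and Zwilch. Their change was between 0.09 and 0.87 in pair 2 and between -0.26 and 0.06 in pair 1. In distinct positions the same 8 genes lay between -0.27 and -0.03. Of the 8, Cenpf passed as lower there with the block (adjusted p = 0.0458, limma-voom), and is thus among the 28 members called lower in positions while above 0 in the values. The other 7 did not pass in any fit.

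Further mitotic genes that are not among the 45 were read from 7 lists covering the cohesin ring, the kinetochore, the anaphase-promoting complex, the spindle and cytokinesis, condensin II, entry regulators and the centrosome. Of 125 listed genes 122 were tested, with a median of -0.22 in the values and -0.38 in distinct positions. In limma with the block 14 of them fell (11.5%, against 6.46% of all genes) and 5 rose (4.10%, against 21%). In distinct positions with the block 67 fell (54.9%, against 22.4%) and 5 rose (4.10%, against 24.7%). The counts of single lists that follow rest on few genes and are to be read against these same shares of all genes.

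Cohesin and its regulators, the complex that Sgol1 protects, had a median of -0.28 over 15 genes, with 2 falling in the paired fit to the values and 11 in that to distinct positions, and 0 rising in either. Stag2, a subunit of the somatic cohesin ring, was lowest, with 0.335 and 0.271 in the Solvent libraries and 0.170 and 0.0901 in the MS-275 libraries. The groups were apart, and the change of -1.25 passed with the block (adjusted p = 0.000857, limma). The highest was Smc3 at 0.14, a core ATPase of the ring.

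The further kinetochore and checkpoint genes (30 tested of 32) had a median of -0.11, with 4 falling and 2 rising in the paired fit to the values and 16 falling and 2 rising in that to distinct positions. Mad2l1bp, also called p31comet, which takes Mad2 out of the checkpoint complex, was highest: 0.110 and 0.0623 with solvent and 0.267 and 0.369 with MS-275. Both treated libraries were above both controls, and the change of 1.86 passed with the block in the values (adjusted p = 0.000119, limma) and in distinct positions at 1.34 (5.43e-05, limma-voom). Beside it, Mad2l1 itself did not pass in either.

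Entry regulators had a median of -0.42 over 17 genes, with 5 falling and 1 rising in the paired fit to the values and 11 falling and 1 rising in that to distinct positions. Mybl2 (B-Myb), the factor that works with MuvB at CHR promoters, was 0.649 and 1.08 with solvent and 0.455 and 0.202 with MS-275. It fell by 1.45 on the log2 scale (adjusted p = 0.00529, limma with the block), and the gene that rose was Plk2, a Polo-like kinase, at 0.67 (adjusted p = 0.0359). Among 12 centrosome and centriole genes, with a median of -0.22, Sass6, a cartwheel protein assembled downstream of Plk4, was lowest, with 0.147 and 0.145 in the Solvent and 0.0926 and 0.0539 in the MS-275 libraries (adjusted p = 0.00678), and Cenpj highest at 0.93 (0.0152, limma with the block). In that list 2 genes fell and 2 rose, and 8 fell and 1 rose in distinct positions. After median-ratio scaling with the block 0 genes passed as higher in the entry list and 0 in the centrosome list, so the rises of Plk2 and Cenpj did not pass there. After quantile normalization with the block 1 and 2 genes of these lists passed as higher.

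The anaphase-promoting complex had a median of -0.22 over 17 genes, from Anapc1 at -0.63 to Anapc10 at 0.53, with 0 falling and 0 rising in the paired fit to the values and 7 falling in distinct positions. The further spindle and cytokinesis genes (28 of 29) had a median of -0.18, from Nusap1 at -0.72, the 1 that fell (adjusted p = 0.0467, limma with the block), to Kif14 at 0.59, and 14 fell and 1 rose in distinct positions. Condensin II and other condensin genes had a median of -0.05 over 3 genes, from Ncapd3 at -0.12 to Ncapg2 at 0.09, and 0 passed in either direction. For comparison with another phase of the cycle, 38 DNA replication genes had a median of -0.14, and 3 fell (7.89%, near the 6.46% of all genes) and 0 rose with the block, from Mcm5 at -0.93 (adjusted p = 0.0281, limma with the block) to Gins4 at 0.46. In distinct positions 19 of the 38 fell and 0 rose, against 22.4% and 24.7% of all genes.

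The deposited alignments, each 35 bases long, numbered between 9785619 and 23467935 in a library, and in Solvent and MS-275 replicate 1 53.2% and 54.4% of them repeated a position, against 0 in both second replicates. Members were covered by a median of 706 to 990 distinct positions in a library, from 129 for Cenpk in MS-275 replicate 1 to 4545 for Top2a in Solvent replicate 2. The 10 ESC markers, Pou5f1 and Nanog among them, were all at or above 0.001 in every library. Their summed value was 6.41 and 24.4 with solvent and 4.84 and 13.5 with MS-275. With the block 5 of 10 fell and 0 rose in the values, against 6.46% and 21% of all genes. The 10 feeder fibroblast markers summed to 0.345 and 0.322 with solvent and 0.593 and 0.691 with MS-275, and 7 of the 10 were higher and 3 lower by mean. With the block 5 of them rose and 0 fell in the values, 4 rose and 1 fell after median-ratio scaling, 3 rose and 2 fell after quantile normalization, and 4 rose and 2 fell in distinct positions. Of all genes, 21% rose and 6.46% fell in the values, and 24.7% and 22.4% in distinct positions. After median-ratio scaling 3344 of 20336 genes rose and 13.8% fell, and after quantile normalization 2936 rose and 14.6% fell. Only Lum in Solvent replicate 1 was under 0.001. The part of these shifts in the members' changes was not tested.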

How the data were processed

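The authors mapped 36-base reads to mm9 and deposited, for each gene, a normalized signal made with Genomatix. Its formula, the aligner and the versions are not given in the sources used here, and it is not a count. The libraries were poly(A) selected, primed with random hexamers and not described as stranded. The shorter tables and the authors' ratios of each pair were not used.

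Members and lists were chosen with earlier results of these data known. Of 183 genes in the further lists, 171 matched by symbol, 5 by another symbol, 4 by Entrez identifier and 3 had no row. A gene was kept when 2 or more libraries reached 0.001. The groups were then compared over all 20336 genes on log2(value + 0.005) with limma 3.58.1 in R 4.3.3 (lmFit, eBayes with trend), two-sided, with Benjamini-Hochberg adjustment. Distinct alignment positions, counted on GENCODE M1 exons on mm9 in either direction, were fitted with limma-voom for the 15037 genes that reached 10 in 2 or more libraries. They saturate where a gene is deeply covered, and at most 26.7% of the possible positions of a member were filled. Reads of overlapping genes on opposite strands cannot be told apart.

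Same-numbered libraries were paired in the fits with a block because the headers of the authors' shorter tables name the first replicate of either group old. Deviations from the group means correlated at 0.764 between same-numbered libraries in the values and at 0.494 in the positions. The names of the alignments call replicate 2 old, so values and alignments may be exchanged between replicates within a group. Such an exchange leaves the pairs as they are. Across genes, values were correlated with positions per exon length on log2 scales. Within the same number, r was 0.881 and 0.847 for Solvent 1 and 2, and 0.856 and 0.822 for MS-275 1 and 2. With the positions of the other replicate of the group, r was higher each time, at 0.913, 0.888, 0.918 and 0.872. In linear fits with those positions and exon length, the slope on positions was 0.92 and 0.93 for the values of Solvent and MS-275 replicate 1. For those of replicate 2 it was 1.23 and 1.25. The slope on length was -0.72 and -0.74 for replicate 1, against -1.10 and -1.08 for replicate 2. The part of this difference in scale in the larger changes of pair 2 was not tested.

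In each role the 2 members with the lowest and the 1 with the highest log2 fold change were described in full, as would be any past the threshold, and from each further list the lowest and the highest. The lowest gene of 1 list is not reported here. Genes picked out after their values were seen are named as such.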

Additional observations from a re-analysis of the deposited data

How the results depend on the processing

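The direction of the members' median was the same in each of the alternatives run, and the count of members past the threshold as higher was 0 in each fit with a test. The count as lower was 0 in the fit as reported and also with pseudocounts of 0.001 and 0.02, eBayes without a trend, no filter, a minimum mean of 0.01, and either scaling on its own. It was 5 with the replicate block, 19 with median-ratio scaling and the block, 14 with quantile normalization and the block, 12 in distinct positions and 28 in distinct positions with the block. The median of -0.27 moved to -0.55 with median-ratio scaling, with or without the block, and to -0.38 in distinct positions, with or without the block. Each library left out in turn gave medians from -0.42 (without MS-275 replicate 2) to -0.21 (without Solvent replicate 2). Unpaired limma tests of these 3-library sets were added after the data were seen and take the lone library to vary like the other group. They called 0 members in either direction in the values and 4 to 14 lower and 0 higher in distinct positions. With the block, 3 libraries leave no spread to test. The 5 members called with the block were lower in all 13 fits and with any library left out, Kif18a from -1.30 to -0.64 and Cenpa from -1.33 to -0.33. Of the 31 members lower in the values, 21 were lower with any library left out and 10 turned above 0 without 1 of them: Cdc20 (up to 0.19), Top2a (0.0062), Cenpi (0.06), Nuf2 (0.03), Cenpe, Cenph, Espl1, Incenp, Kif2c and Ncapd2. Of the 12 that were higher, 11 turned and Cdc25b did not. Per library left out, 24 to 26 of the 43 moved by more than the spread between pairs. Members lower in both pairs numbered 27 to 38. Signs above 0 that turned, under median-ratio scaling with or without the block, were Birc5 (-0.080), Cdc25c (-0.19), Cdk1 (-0.019), Cenpf (-0.23), Cenpn (-0.26), Kif23 (-0.19), Pttg1 (-0.12), Spc25 (-0.21) and Zwilch (-0.27). In distinct positions without and with the block they were Birc5 (-0.20, -0.21), Cdc25c (-0.16, -0.17), Cdk1 (-0.034, -0.037), Cenpf (-0.26, -0.25), Cenpn (-0.034, -0.045), Kif23 (-0.11, -0.11), Mad2l1 (-0.12, -0.12), Pttg1 (-0.056, -0.031), Smc2 (-0.15, -0.14), Spc25 (-0.11, -0.10) and Zwilch (-0.26, -0.27). Quantile normalization put Cenpf at -0.0014 with or without the block. Over all genes the paired fit called 1314 lower and 4277 higher, and 2806 and 3344 after median-ratio scaling. The cause of these moves was not tested. With 2 libraries a group and 2 pairs, the spread rests on few degrees of freedom. The eBayes step draws each gene's variance towards a level fitted over all genes. With the block, SEs and p-values rest largely on that level and little on how far a gene's 2 pairs differ. In the paired fit to the values Ncapg, with pairs at -0.32 and -0.35, had an SE of 0.25. Kif11, with pairs at -0.38 and -1.52, had an SE of 0.27 there.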
